A study of Mus musculus with 24 samples.

Results

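The expression of 7 genes that deal with alkylated and mismatched DNA bases (Mgmt, Mpg, Alkbh2, Alkbh3, Msh3, Msh6 and Pms2) was followed through 24 RNA-seq libraries of mouse colorectal tissue. The genes were chosen by symbol, because azoxymethane acts by alkylating DNA, and all 7 were found among the 24346 symbols of each table. They were chosen with earlier results of these data known, so shares over all genes set beside them below are descriptions. Values are in FPKM, fragments per kilobase of transcript after scaling to each library's mapped fragments, so that levels of genes of different length can be set side by side. All 7 passed the filter on low values (at least 1 FPKM in at least 4 libraries), as did 13799 genes in all.

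Every animal carried the treatment label AOM/DSS, that is azoxymethane, a carcinogen, with dextran sulfate sodium, a polymer that injures the colon lining, so no untreated tissue enters any comparison. The genotype label was either a knockout (KO) of c-MAF, a transcription factor encoded by Maf, or wild type (WT), and each piece of tissue was labelled tumor or normal. Within the KO label the titles name heterozygous groups with a leading 1 or 8 and a homozygous group with a leading 8, written here as KO-8-homo beside KO-8-hetero and KO-1-hetero. Within the WT label they name a young and an old group. There were 3 tumor libraries for each KO group, 4 for WT-young and a single one for WT-old, and normal tissue had 2 libraries in each of these groups. The meaning of the leading numbers, the ages, the deleted stretch of Maf and the tissue in which it was deleted are not given in the sources used here. The labels also do not say which libraries came from the same animal or whether replicates are separate animals, so the p-values below measure the spread between these libraries, which may be technical.

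Azoxymethane is converted in the body, largely by the cytochrome P450 enzyme Cyp2e1, into a methylating agent that attaches methyl groups to DNA bases. The O6-methylguanine it leaves pairs with thymine, and mismatch repair recognises that mispair. Mgmt removes the methyl group from O6-methylguanine in a single, self-inactivating step. Mpg, a DNA glycosylase, cuts out methylated purines such as 3-methyladenine and opens base excision repair. Alkbh2 and Alkbh3 are oxidative demethylases that restore methylated adenine and cytosine, Alkbh2 mainly in double-stranded DNA and Alkbh3 mainly in single strands. Msh6 and Msh3 are error-sensing subunits, Msh6 chiefly for single mispairs and Msh3 chiefly for larger loops. Pms2 carries the endonuclease activity that nicks the strand to be repaired.

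Positions are from GENCODE M21 on GRCm38, the assembly that mm10 (the build named in the submitters' processing notes) denotes. Mgmt lies at chr7:136894614-137130266 on the plus strand and overlaps no exon of an opposite-strand gene. Mpg lies at chr11:32226505-32232700 on the plus strand, and 1340 of its exonic bases, 35.7%, are also exon of Nprl3 on the other strand. Alkbh2 (chr5:114123926-114128218, minus strand) shares 29.5% of its exonic bases with Usp30. Smaller shares were found for Alkbh3 (chr2:93980550-94010807, minus strand; 2.69%, with the antisense gene Alkbh3os1) and for Msh6 (chr17:87975062-87990892, plus strand; 0.782%, with Fbxo11). Msh3 lies at chr13:92211872-92355003 on the minus strand. Pms2 (chr5:143909964-143933968, plus strand) starts 117 bases from Aimp2, which runs the other way, and shares no exonic base with an opposite-strand gene. The library kit keeps the strand, but the strand setting of the quantification is not given in the sources used here, so reads of overlapping partners cannot be told apart.

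The 250 bases before the first RefSeq start (GRCm38.p6) are shown for 3 members whose level or ratio is described below and whose window is not in a UTR of a neighbour: Mgmt, with the widest range of the 7, Alkbh2, highest in the same library as Mgmt, and Msh6. Capitals mark matches, on either strand, to the GC box GGGCGG and, in Msh6, also 1 match to CCAAT; neighbouring matches can share a base. The windows lie at chr7:136894336-136894585 (plus strand), chr5:114128219-114128468 (minus strand) and chr17:87974800-87975049 (plus strand).
Mgmt: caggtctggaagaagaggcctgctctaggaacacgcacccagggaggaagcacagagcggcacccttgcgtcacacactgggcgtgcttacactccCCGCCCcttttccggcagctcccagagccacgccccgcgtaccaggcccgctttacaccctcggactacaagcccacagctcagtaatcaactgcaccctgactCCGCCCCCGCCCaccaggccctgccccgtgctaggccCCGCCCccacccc
Alkbh2: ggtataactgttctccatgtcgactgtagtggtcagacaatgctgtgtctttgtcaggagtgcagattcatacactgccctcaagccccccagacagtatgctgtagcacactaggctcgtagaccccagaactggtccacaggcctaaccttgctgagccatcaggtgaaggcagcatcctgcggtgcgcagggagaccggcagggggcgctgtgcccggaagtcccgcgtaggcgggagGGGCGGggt
Msh6: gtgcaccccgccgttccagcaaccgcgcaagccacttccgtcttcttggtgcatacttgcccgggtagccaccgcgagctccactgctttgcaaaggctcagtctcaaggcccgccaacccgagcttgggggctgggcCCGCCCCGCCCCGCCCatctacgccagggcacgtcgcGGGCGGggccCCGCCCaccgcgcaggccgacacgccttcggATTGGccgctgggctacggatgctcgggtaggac
The Mgmt window holds 4 GC boxes and is 67.2% G or C, the Alkbh2 window 1 GC box at 60% and the Msh6 window 5 GC boxes at 70.8%, against a median of 52.4% over all windows. GGGCGG occurs in 35.7% of all 32851 RefSeq promoter windows of 300 bases (250 before and 50 after the start). It occurs in the first window of every member other than Alkbh3. None of the members' windows held TATAAA (13.6% of all windows) or TGCTGAC, the core of a MAF recognition element (4.67% of all windows). E2F-like words, searched as TTCCCGC, with the variant TTCGCGC, with the variant TTGCCGC and with the variant TTGGCGC, occur in 9.57% of all windows, and in those of Msh3 (2 matches), Msh6 (1) and Pms2 (1). Searches covered both strands, and a match or its absence describes these letters only.

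Relative depth, estimated from the smallest values, ranged from 0.689 to 1.87 of the median library, and 12074 to 13290 genes reached 1 FPKM. Summed over all symbols of a library, FPKM came to 450172 to 612427 in tumors and 583474 to 1016814 in normal tissue. The highest sum was that of KO-8-hetero normal replicate 2. The main values were not rescaled for these sums, and their part in single values was not tested. Quantile normalization and 75th percentile scaling were tried as alternatives. Maf itself stood at 1.37 to 2.82 FPKM in WT-labelled normal tissue and 1.52 to 6.27 in KO-labelled normal tissue, and at 1.63 to 7.26 in WT-labelled and 2.62 to 7.4 in KO-labelled tumors. It was therefore not lower under the KO label, and since the deleted stretch is not known this single value per gene does not check the label, so the libraries are called KO-labelled and WT-labelled. Epithelial markers were present throughout (8 genes, summed FPKM 5653 to 19846 over all groups). In tumors 1 of the 8 fell under the WT and 3 under the KO label, with median log2 differences of -0.32 and -0.40. Over all genes 14.8% and 23.2% fell, and 15.5% and 24.1% rose. Of the other markers, 5 of 6 absorptive colonocyte genes fell in tumors under either label, as did all 7 smooth muscle genes. Goblet cell genes fell too, 3 of 6 under the WT and 5 of 6 under the KO label. Of 6 fibroblast genes 1 rose under the WT label, and 4 rose and 1 fell under the KO label. Neutrophil genes rose in tumors, 5 of 6 under the WT and 6 of 6 under the KO label (summed FPKM 42.3 to 1855 in tumors, 4.24 to 35.4 in normal tissue), and so did 4 of 6 macrophage genes under either label; the part of these lists in the members' values was not tested. In bulk tissue, fewer cells of a type and less RNA per cell cannot be told apart.

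Apart from the rest stood 1 normal library and 1 tumor library. In KO-8-hetero normal replicate 2, the median log2 difference from the other normal libraries was 0.37 for the 3327 shortest genes and -0.40 for the 3327 longest. That gap of 0.76 compares with gaps of -0.31 to 0.19 in the other 23 libraries. In that library the members did not all lie near the median of genes of like length, taken in 10 bins. Alkbh2 (1073 bases) was 0.92 above the mean of the other normal libraries on the log2(FPKM + 1) scale, with its bin at 0.50. Mgmt (2894 bases) was 1.17 above that mean, with its bin at 0.06. Msh3 (4254 bases) was 0.86 below, at -0.86, with its bin at -0.07, and Pms2 (6157 bases) was at -0.88, with its bin at -0.33. Mpg (2143 bases) was at 0.20, as was its bin. Msh6 (4251 bases) was at -0.32, with its bin at -0.07. Alkbh3, though short at 1395 bases, was at -0.23, with its bin at 0.32. The WT-old tumor, the only library of its group, had Msh6 at 0.67, Pms2 at 0.66 and Msh3 at 0.50 above the other tumors, with Mgmt at -0.37 and Alkbh2 at -0.41, while its gap between short and long genes was -0.10. It also had the highest smooth muscle sum of any tumor (2867 FPKM over 7 genes, against 172 to 369 in WT-young tumors) and the highest B and plasma cell sum (1815 FPKM over 6 genes, against 108 to 316). Results that rest on these libraries are given below with and without them, and the part of length or cell makeup in each was not tested.

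**Figure D1:**
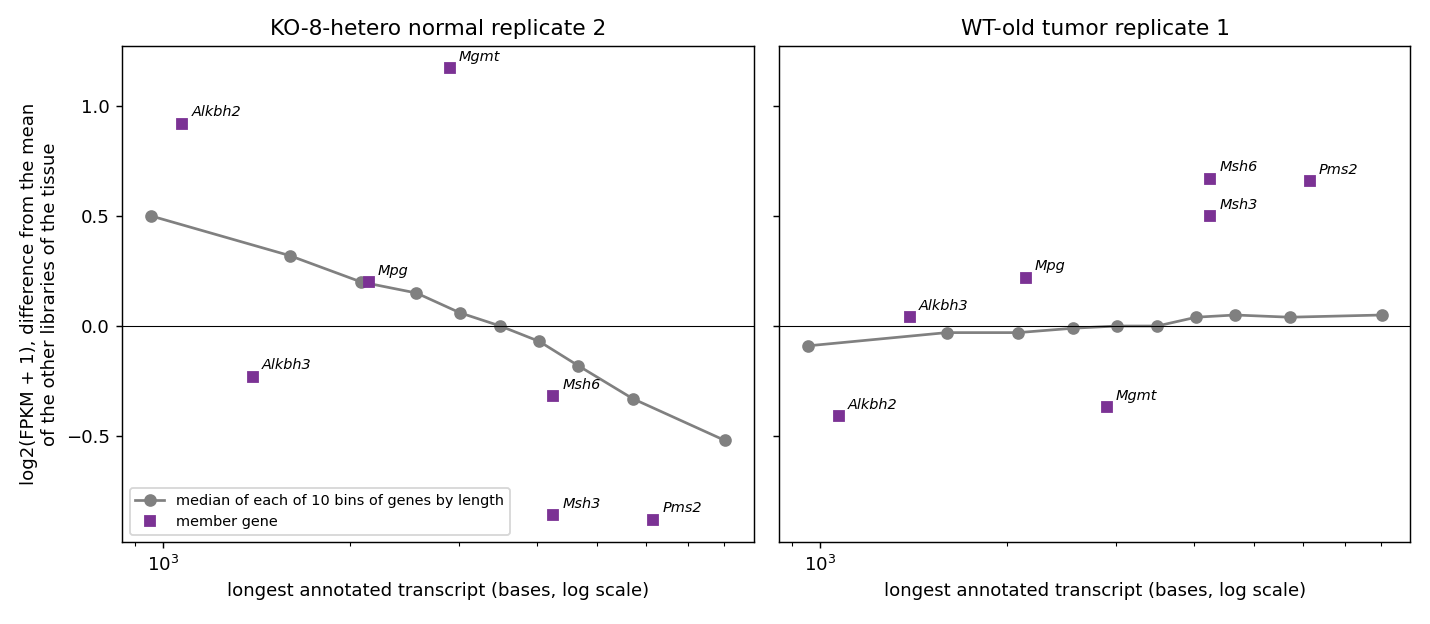
Difference of each library from the mean of the other libraries of its tissue (vertical axis, log2(FPKM + 1)) against the longest annotated transcript (horizontal axis, bases, log scale); grey points are medians of 10 bins of the tested genes by length, squares the 7 members. In KO-8-hetero normal replicate 2 the medians run from 0.50 in the bin of shortest genes to -0.52 in the longest, and in the WT-old tumor from -0.09 to 0.05.

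Mgmt had the widest range of the 7 genes, 4.67 to 23.9 FPKM, a 5.12-fold span around a median of 9.14; without the stand-apart libraries it ended at 14.7, a 3.16-fold span. In normal tissue it stood at 11.2 and 7.7 FPKM in WT-young, 9.17 and 9.11 in WT-old, 11.1 and 13.7 in KO-1-hetero, 14.5 and 23.9 for the KO-8-hetero group, and 7.02 and 9.65 for KO-8-homo. In tumors it stood at 6.24, 6.22, 5.78 and 8.08 FPKM in WT-young and 5.87 in WT-old. The KO-labelled tumors read 10.3, 10.1 and 5.79 FPKM in KO-1-hetero, 4.67, 9.59 and 8.04 for the KO-8-hetero group, and 14.7, 10.4 and 6.91 for KO-8-homo. WT-labelled tumors were thus low and close together, apart from the single value of 8.08, which lay above the lowest WT normal library. KO-labelled tumors were scattered over a range that took in the WT-labelled values of both tissues. Of the 10 groups in order of mean, neighbouring groups overlapped at every step other than the last, where both KO-8-hetero normal libraries lay above all others save the KO-8-homo tumor at 14.7.

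Mpg was steadier, from 6.09 to 10.2 FPKM, a 1.67-fold span. Its highest values were those of the WT-labelled tumors, 9.4, 10.2, 9.16 and 9.89 FPKM in WT-young and 9.42 in WT-old. WT-labelled normal tissue gave 6.87 and 8.78 FPKM in WT-young and 6.99 and 7.44 in WT-old. All WT-labelled tumors therefore lay above all WT-labelled normal libraries. KO-labelled tumors read 6.34, 6.68 and 6.88 FPKM in KO-1-hetero, 8.44, 8.55 and 7.39 for the KO-8-hetero group, and 6.9, 7.35 and 7.39 for KO-8-homo. KO-labelled normal tissue read 6.72 and 6.09, 7.17 and 8.34, and 7.76 and 6.6 FPKM in the same order. Under the KO label the tissues overlapped in each of the 3 groups, and no KO-labelled library of either tissue reached the lowest WT-labelled tumor.

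The demethylase genes differed in level: Alkbh3 stood at 9.96 to 20.7 FPKM and Alkbh2 at 2.34 to 8.26. Alkbh2 in WT-labelled normal tissue was nearly constant, 4.15 ± 0.079 FPKM (SD, n = 4), and the WT-young tumors, at 4.88, 4.29, 4.55 and 4.13, overlapped it, while the WT-old tumor was lower at 3.06. Its extremes were both in KO-labelled normal tissue, 2.34 and 3.09 FPKM in KO-8-homo and 4.44 and 8.26 in KO-8-hetero, the last being KO-8-hetero normal replicate 2. KO-labelled tumors held Alkbh2 at 3.68 to 5.13 FPKM, within the range of KO-labelled normal tissue. Alkbh3 was highest in a WT-young normal library (20.7 FPKM, the other 16) and in KO-8-homo normal tissue (16.7 and 19.2), and lowest in a KO-1-hetero tumor (9.96, the others 12.5 and 14.7). KO-8-homo tumors, at 12.9, 14 and 13.5 FPKM, all lay below KO-8-homo normal tissue, whereas in KO-8-hetero the tumors (15.1, 18.2 and 16.4) all lay above normal tissue (14.4 and 13.2). As a result the ratio of Alkbh3 to Alkbh2, both per length, was 6.22 and 7.14 in the KO-8-homo normal libraries and 1.6 to 4.94 in every other library.

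Msh6 was the most abundant of the mismatch repair members at 7.35 to 17.5 FPKM. WT-young tumors read 11.1, 11.3, 10.9 and 10 FPKM, the WT-old tumor 17.5, and WT-labelled normal tissue 8.89, 9.41, 9.44 and 9.84. No WT-labelled tumor overlapped normal tissue, although the gap was narrow for WT-young. KO-labelled tumors were tightly grouped at 9.43 to 11.4 FPKM (10.5 ± 0.739, SD, n = 9), while KO-labelled normal tissue ranged from 7.35 to 11.2 and overlapped them.

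Msh3, the sensor of larger loops, stood at 3.33 to 8.82 FPKM. WT-labelled tumors read 6.98, 7.36, 6.41 and 7.39 FPKM in WT-young and 8.82 in WT-old. The KO-labelled tumors read 5.06, 5.89 and 5.52 FPKM in KO-1-hetero, 5.82, 5.06 and 5.62 for the KO-8-hetero group, and 5.73, 5.24 and 5.93 for KO-8-homo. All 9 KO-labelled tumors were lower than all 5 WT-labelled tumors, and their 3 groups were alike in mean, 5.49, 5.5 and 5.63 FPKM. In normal tissue the labels overlapped, with 7.77, 5.58, 6.86 and 7.54 FPKM in WT-labelled libraries. KO-labelled normal tissue read 8.11 and 7.5 FPKM in KO-1-hetero, 5.97 and 3.33 for the KO-8-hetero group, and 6.16 and 6.66 for KO-8-homo. Apart from the value of 3.33, from KO-8-hetero normal replicate 2, every KO-labelled normal library lay above every KO-labelled tumor, though for KO-8-hetero replicate 1 only by a little.

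The ratio of Msh6 to Msh3, the mispair and loop sensors, was 1.9 ± 0.144 in KO-labelled tumors (SD, n = 9; 1.71 to 2.17) and 1.54 ± 0.142 in WT-young tumors (SD, n = 4; 1.36 to 1.7). The WT-old tumor had a ratio of 1.98, within the KO-labelled range. In normal tissue the ratio was 1.38 ± 0.228 under the WT label (SD, n = 4) and 1.53 ± 0.405 under the KO label (SD, n = 6; 1.17 to 2.21). The highest of these normal values came from KO-8-hetero normal replicate 2, without which the KO-labelled ratio was 1.4 ± 0.261 (SD, n = 5, 1.17 to 1.8). These ratios were computed after the values of both genes were seen and are given as a description.

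Pms2 was the lowest member, 1.15 to 5.39 FPKM with a median of 3.05. WT-young tumors read 3.34, 3.21, 3.55 and 3.09 FPKM and the WT-old tumor 5.39, all above WT-labelled normal tissue at 2.98, 2.67, 2.5 and 2.27. KO-labelled tumors lay between 2.7 and 3.25 FPKM, a narrow band of 2.95 ± 0.205 (SD, n = 9). KO-labelled normal tissue read 3.7 and 3.12 FPKM in KO-1-hetero, 3.02 and 1.15 for the KO-8-hetero group, and 3.24 and 3.27 for KO-8-homo. With the exception of the single 1.15, the KO-labelled normal libraries lay within or above the range of the tumors. Without the stand-apart libraries Pms2 stood at 2.27 to 3.7 FPKM, Msh3 at 5.06 to 8.11, Msh6 at 7.91 to 11.4 and Alkbh2 at 2.34 to 5.13, while the ranges of Mpg and Alkbh3 did not rest on them.

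**Figure D2:**
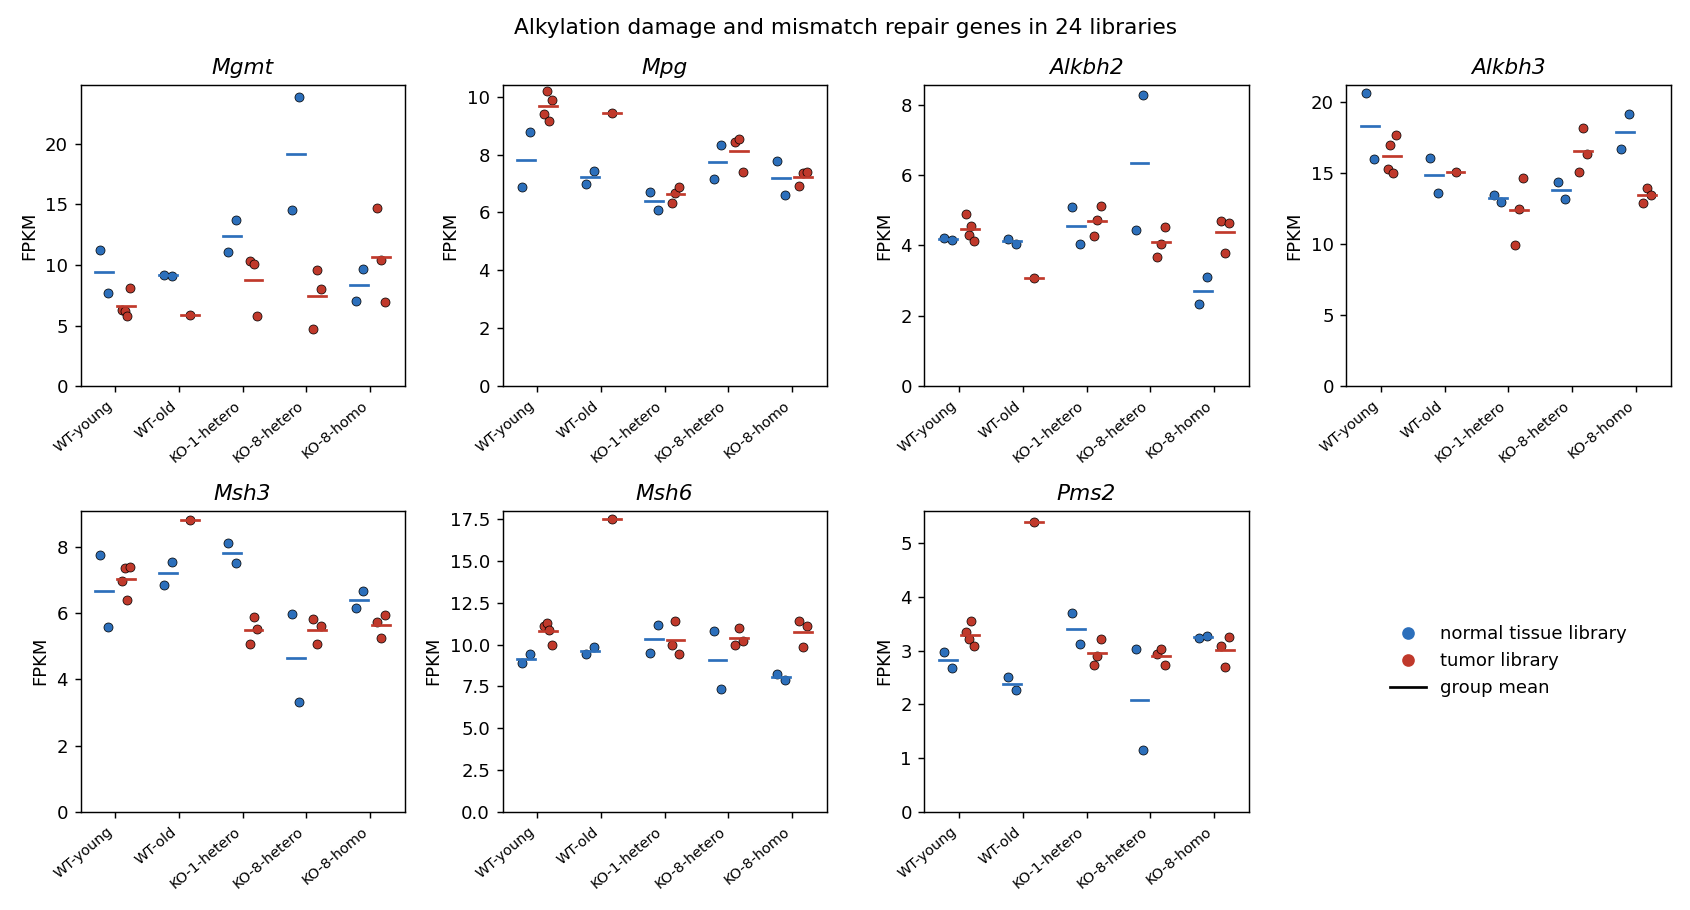
FPKM of the 7 members (vertical axes, from 0) in the 10 groups (horizontal axes), 1 point per library, blue for normal tissue and red for tumors, with a line at each group mean. The 5 WT-labelled tumors stand above all other libraries for Mpg, the single WT-old tumor stands above all for Msh6, Pms2 and Msh3, and the single KO-8-hetero normal library at 23.9 FPKM stands above all for Mgmt.

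Whether tumors differed from normal tissue was tested separately under each label with limma on log2(FPKM + 1), over all 13799 genes, with Benjamini-Hochberg adjustment and a threshold of 0.05. Fold changes are on that scale, which understates changes of low genes. In WT-labelled tissue 1 of the 7 members, Mpg, rose in tumors, by 0.32 (SE 0.1, adjusted p = 0.0189, 5 tumors against 4 normal), and 0 fell. Over all genes 15.5% rose and 14.8% fell, so a count of 1 in 7 is near the background. Mpg, Msh6 and Pms2 were the 3 members whose WT-labelled tumors all exceeded the normal libraries, as did 12.3% of all genes. In KO-labelled tissue 0 of 7 passed in either direction, while 24.1% of all genes rose and 23.2% fell; 1 member, Mgmt, had an unadjusted p under 0.05.

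The Mpg difference had the same sign under all alternatives tried but not always the call. It missed the threshold with quantile normalization (0.23, adjusted p = 0.0868), without the WT-old libraries (0.28, adjusted p = 0.152), with the smooth muscle list as covariate (0.27, adjusted p = 0.169), with replicate numbers as a block (0.33, adjusted p = 0.142), and without WT-young normal replicate 1 (0.29, adjusted p = 0.0567) or WT-old normal replicate 1 (0.29, adjusted p = 0.0618). Without both libraries that stand apart it was 0.33 (adjusted p = 0.0105). Nprl3, which shares exon with Mpg on the other strand, had a difference of 0.27 (SE 0.11, adjusted p = 0.0618) under the WT label and rose by 0.27 (SE 0.0862, adjusted p = 0.0133) under the KO label, where Mpg was at 0.04 (SE 0.0788, adjusted p = 0.712).

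Msh6 and Pms2 lay close to the threshold in WT-labelled tissue. Msh6 had a difference of 0.31 (SE 0.13, adjusted p = 0.0691), and without the WT-old tumor it was 0.19 (adjusted p = 0.197). Pms2 had a difference of 0.37 (SE 0.169, adjusted p = 0.0975). Without the WT-old libraries the limma value for Pms2 was 0.17 (adjusted p = 0.596). It was 0.18 (adjusted p = 0.34) with quantile normalization and 0.40 (adjusted p = 0.289) with the replicate block. Pms2 passed in 3 of 11 alternatives and in 1 of 24 fits that left out 1 library. With both stand-apart libraries left out, an alternative chosen after seeing the data, Pms2 rose by 0.26 (adjusted p = 0.0192) and Msh6 stood at 0.19 (adjusted p = 0.121). Leaving out KO-8-hetero normal replicate 2 alone, a library that enters this comparison only through the shared estimate of spread, put both past the threshold, at 0.31 (adjusted p = 0.0459) for Msh6 and 0.37 (adjusted p = 0.0112) for Pms2. Proliferation genes moved with both: 14 of 18 rose in WT-labelled tumors, and their summed level was 360 to 475 FPKM in tumors against 168 to 281 in normal tissue, with none at 0. With the mean of that list as a covariate the difference was 0.21 (adjusted p = 0.445) for Msh6 and -0.03 (adjusted p = 0.931) for Pms2, while that of Mpg was 0.48 (adjusted p = 0.0168). Since the sums of the tissues did not overlap, this covariate is largely tied to the tissue label here. Its fit therefore cannot tell proliferation and tissue apart. With the smooth muscle list as covariate the values were 0.52 (adjusted p = 0.0309) for Msh6 and 0.63 (adjusted p = 0.0404) for Pms2.

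Under the KO label Msh6 was at 0.19 (SE 0.102, adjusted p = 0.13), and at 0.35 (adjusted p = 0.0357) with the smooth muscle covariate, and Pms2 at 0.05 (SE 0.133, adjusted p = 0.759). Msh3 was at -0.12 (SE 0.119, adjusted p = 0.417) with all libraries. Without KO-8-hetero normal replicate 2, in which Msh3 was lowest, it fell by 0.26 (adjusted p = 0.0145), and without both stand-apart libraries the value was -0.26 (adjusted p = 0.00911). Under the WT label Msh3 was at 0.08 (SE 0.151, adjusted p = 0.705). Pms2 under the KO label changed sign without that same library, to -0.11 (adjusted p = 0.326). With all libraries kept, Msh3 also passed with quantile normalization (-0.30, adjusted p = 0.0189) and with the proliferation covariate (-0.27, adjusted p = 0.0463), so its call depends on 1 library and on these choices.

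Mgmt had similar negative values under both labels, -0.47 (SE 0.265, adjusted p = 0.18) in WT-labelled and -0.49 (SE 0.208, adjusted p = 0.0555) in KO-labelled tissue. The KO value was -0.31 (adjusted p = 0.19) without KO-8-hetero normal replicate 2, whose Mgmt was the highest of all. It passed the threshold without KO-8-homo tumor replicate 1 (-0.58, adjusted p = 0.0229), without either KO-8-homo normal library, replicate 1 (-0.64, adjusted p = 0.0137) or replicate 2 (-0.56, adjusted p = 0.044), and with quantile normalization (-0.52, adjusted p = 0.0421). Among the 3 KO groups the tumor mean was below the normal mean in KO-1-hetero (8.75 against 12.4 FPKM) and KO-8-hetero (7.43 against 19.2) but above it in KO-8-homo (10.7 against 8.34). With the proliferation covariate the WT value was 0.10 (adjusted p = 0.88). Alkbh2 (0.00 and 0.03) and Alkbh3 (-0.04 and -0.08) had values near 0 under the WT and KO labels, with standard errors of 0.188 and 0.148 for Alkbh2 and 0.143 and 0.112 for Alkbh3. In the libraries with Xist below 1 FPKM alone, which leaves out all 4 heterozygous normal libraries and 2 of the 6 heterozygous tumors, so that the KO-labelled normal tissue is KO-8-homo alone, Alkbh2 under the KO label was at 0.50 (adjusted p = 0.0111) and Mgmt at 0.13 (adjusted p = 0.745). All 6 libraries with Xist at 1 FPKM or more were heterozygous KO-labelled ones, and every WT-labelled library was below 1 FPKM. Xist level is thus unevenly spread in the comparisons between the labels and between heterozygous tumors and normal tissue. Among KO-labelled normal libraries, Xist level and heterozygous or homozygous group cannot be told apart.

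The difference between the labels in the tumor effect was tested as an interaction. By limma 0 of 7 members passed, as did 0% of all 13799 genes, with 1 member (Mpg) and 654 genes at an unadjusted p under 0.05. For Mpg the KO effect was lower than the WT effect by a log2 value of -0.28 (SE 0.128, adjusted p = 0.986). That Mpg rose under the WT label and missed the threshold under the KO label is therefore not shown to be a difference between them.

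**Figure D3:**
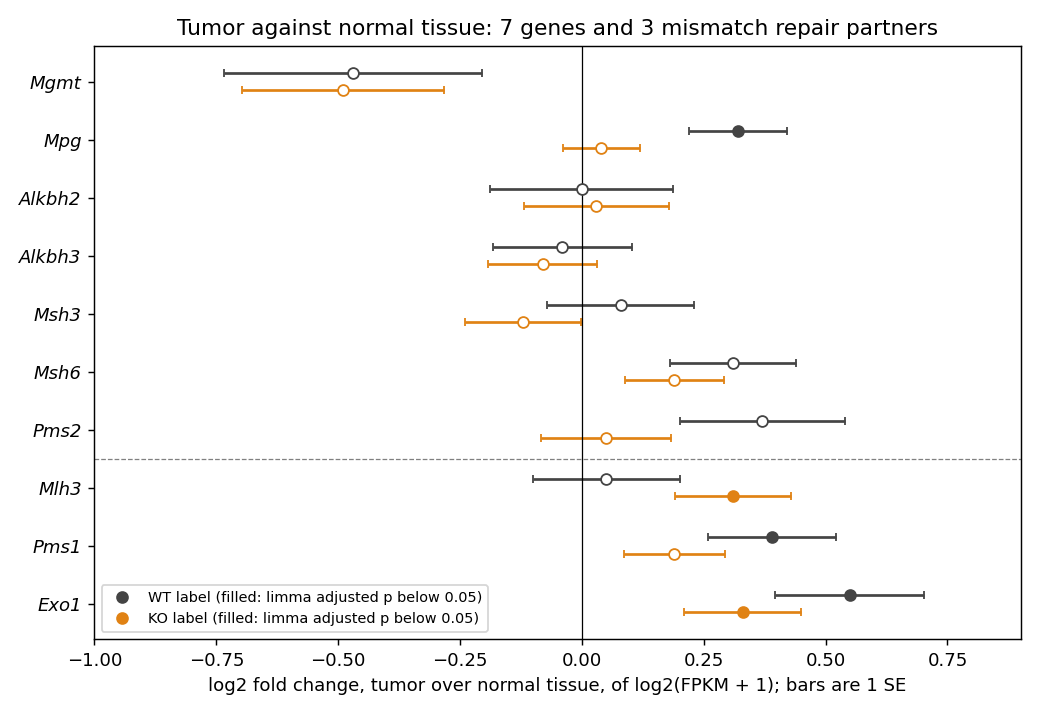
Tumor over normal tissue log2 fold changes of log2(FPKM + 1) (horizontal axis) for the 7 members and, below the dashed line, 3 partners of mismatch repair, under the WT label (grey) and the KO label (orange); bars are 1 SE and filled points passed the limma threshold. Among the members the only filled point is Mpg under the WT label, at 0.32.

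KO-labelled and WT-labelled tumors were compared next. By limma 0 of 7 members passed, and 1 gene of 13799 did, 0.00725%; 2 members (Mpg and Msh3) and 1147 genes had an unadjusted p under 0.05. KO-labelled tumors averaged 7.33 ± 0.75 FPKM (SD, n = 9) of Mpg against 9.61 ± 0.419 (SD, n = 5) for WT-labelled ones, a log2 difference of -0.35 (SE 0.0834, adjusted p = 0.32). Msh3 was 5.54 ± 0.344 (SD, n = 9) against 7.39 ± 0.892 (SD, n = 5), also a difference of -0.35 (SE 0.126, adjusted p = 0.459). These 2 members had all 9 KO-labelled tumors below all 5 WT-labelled tumors, an arrangement seen in 62 genes, 0.449% of those tested. Since the members were chosen with earlier results of these data known, that share is no measure of chance for them.

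For Mpg the adjusted p over the alternatives ran from 0.0636 to 0.93 and no alternative passed. Without the stand-apart libraries the differences were -0.36 (adjusted p = 0.0948) for Mpg and -0.30 (adjusted p = 0.152) for Msh3. With smooth muscle markers as covariate they were -0.34 (adjusted p = 0.294) and -0.37 (adjusted p = 0.432), and with the proliferation list -0.40 (adjusted p = 0.0636) and -0.23 (adjusted p = 0.356). Summed smooth muscle markers were 236 to 1288 FPKM in KO-labelled tumors and 172 to 369 in WT-young tumors, with 2867 in the WT-old tumor, and none of the 7 was at 0. Nprl3 stood at 5.77 to 8.89 FPKM in KO-labelled and 7.28 to 8.64 in WT-labelled tumors, so the partner that shares exon with Mpg overlapped between the labels.

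The tumor ranges of the remaining 5 members overlapped between the labels. Mgmt was at 0.37 (SE 0.22, adjusted p = 0.674), Pms2 at -0.24 (SE 0.14, adjusted p = 0.675) and Msh6 at -0.17 (SE 0.108, adjusted p = 0.692). Without the WT-old tumor, the Pms2 value was -0.12 (adjusted p = 0.782) and the Msh6 value -0.04 (adjusted p = 0.899). Alkbh3 was at -0.18 (SE 0.119, adjusted p = 0.708) and Alkbh2 at 0.06 (SE 0.157, adjusted p = 0.945).

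**Figure D4:**
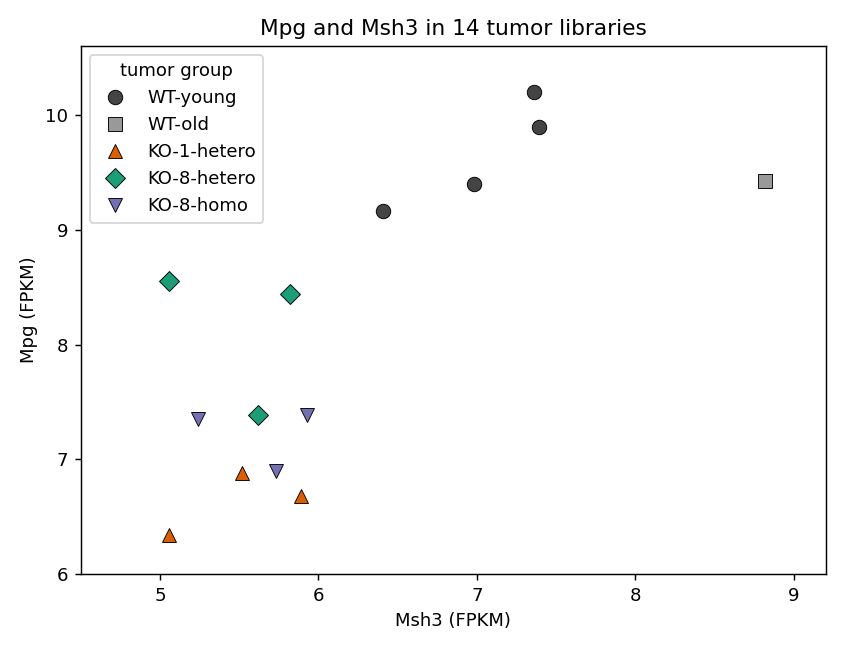
Mpg (vertical axis, FPKM) against Msh3 (horizontal axis, FPKM) in the 14 tumor libraries, 1 marker shape per group; neither axis starts at 0. The 9 KO-labelled tumors lie at or below 5.93 FPKM of Msh3 and 8.55 FPKM of Mpg, and the 5 WT-labelled tumors at or above 6.41 and 9.16.

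In normal tissue limma called 0 of 7 members and 0% of all genes between the labels, with 0 members and 645 genes at an unadjusted p under 0.05. Mgmt was 13.3 ± 5.86 FPKM (SD, n = 6) under the KO label and 9.3 ± 1.46 (SD, n = 4) under the WT label. Mpg was 7.12 ± 0.824 against 7.52 ± 0.872, and Msh3 was 6.29 ± 1.66 against 6.94 ± 0.986 (same numbers of libraries). The ranges of the labels overlapped for each of these 3 genes.

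Each KO tumor group was then set against the WT-young tumors, which serve all 3 comparisons, so that their results are not independent of one another. Mpg fell in KO-1-hetero tumors by 0.48 (SE 0.0998, limma adjusted p = 0.0212), from 9.66 ± 0.468 FPKM (SD, n = 4) in WT-young to 6.64 ± 0.274 (SD, n = 3). It was the 1 member of 7 to pass there, where 1.25% of all genes fell. In KO-8-homo tumors Mpg was 7.21 ± 0.272 FPKM (SD, n = 3), a difference of -0.38 (SE 0.0998, adjusted p = 0.148; -0.53 and adjusted p = 0.0188 with the proliferation covariate), and 0 of 7 members passed against 0.457% of all genes. In KO-8-hetero tumors it was 8.13 ± 0.638 FPKM (SD, n = 3), a difference of -0.23 (SE 0.0998, adjusted p = 0.705), and 0 of 7 passed against 0.00725% of all genes. In each of these last comparisons 2 members had an unadjusted p under 0.05.

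The call on Mpg in KO-1-hetero tumors was lost with the smooth muscle covariate (-0.38, adjusted p = 0.188), with only the libraries whose Xist was below 1 FPKM (-0.50, adjusted p = 0.0525), with the replicate block (-0.47, adjusted p = 0.0524), and without KO-1-hetero tumor replicate 1 (-0.45, adjusted p = 0.116) or 3 (-0.50, adjusted p = 0.0724) or WT-young tumor replicate 2 (-0.46, adjusted p = 0.0625) or 4 (-0.47, adjusted p = 0.0503). In KO-1-hetero tumors 225 of all 13799 genes rose and 172 fell. Those that rose included 2 of 7 smooth muscle genes, with sums of 703 to 1064 FPKM against 172 to 369. They also included 5 of 6 B and plasma cell genes, with sums of 850 to 943 against 108 to 316, and none of either list was at 0. Of the T cell genes 1 of 6 rose, and of the epithelial genes 1 of 8 fell. None of the 6 fibroblast genes passed there (sums of 500 to 580 against 286 to 771). Alkbh3 was at -0.38 (SE 0.126, adjusted p = 0.111) in the same comparison. KO-1-hetero tumors had Msh3 at -0.31 (SE 0.138, adjusted p = 0.236), and KO-8-hetero tumors had it at -0.31 (SE 0.138, adjusted p = 0.705). Mgmt was at 0.58 (SE 0.262, adjusted p = 0.471) in KO-8-homo tumors, where its values of 14.7, 10.4 and 6.91 FPKM overlapped the WT-young value of 8.08.

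The rest of the repair machinery is given by lists drawn from general knowledge. The counts below stand beside 15.5% of all genes that rose and 14.8% that fell under the WT label. Under the KO label the shares of all genes were 24.1% and 23.2%. Of 5 mismatch repair partners 3 were tested; Msh4 and Msh5, known for meiosis, were too low. In WT-labelled tumors 2 of the 3 rose and 0 fell. Exo1, the exonuclease that removes the faulty strand, rose by 0.55 (SE 0.153, adjusted p = 0.00945), and Pms1 by 0.39 (SE 0.132, adjusted p = 0.0308). In KO-labelled tumors 2 of 3 rose, Exo1 by 0.33 (SE 0.12, adjusted p = 0.0266) and Mlh3 by 0.31 (SE 0.119, adjusted p = 0.0364). The median difference of the 3 was 0.39 under the WT and 0.31 under the KO label, and that of all genes 0.02 under both. Without the stand-apart libraries 0 of 3 passed under the KO label, with Exo1 at 0.22 (adjusted p = 0.083) and Mlh3 at 0.19 (adjusted p = 0.112), and 2 of 3 under the WT label. With the proliferation covariate 0 of 3 passed under either label.

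Of the replication factors that mismatch repair shares, 6 of 14 were higher and 0 lower in WT-labelled tumors (median difference 0.39), and 4 were higher and 2 lower in KO-labelled tumors (median -0.10). Lig1, the ligase that seals the patch, rose by 0.90 and 0.28 under the WT and KO labels, and Rpa1, which coats single strands, by 0.89 and 0.50. The KO call on Lig1 was lost in 12 of the 24 fits that left out 1 library. Rfc3, a subunit of the clamp loader, rose by 0.89 under the WT label and was at 0.13 (adjusted p = 0.328) under the KO label. In base excision repair, downstream of Mpg, 5 of 19 tested genes rose and 1 fell under the WT label, and 4 rose and 1 fell under the KO label. These calls made up 31.6% and 26.3% of the list, against 30.4% and 47.2% of all genes. Fen1, the flap nuclease, rose by 0.86 in WT-labelled tumors, and Apex2, an endonuclease at abasic sites, by 0.63 and 0.40 under the WT and KO labels. Ung, the uracil glycosylase, fell by 0.72 and by 0.37.

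Among AlkB homologs and the ASCC partners of Alkbh3, 0 of 10 rose and 1 fell under the WT label, and 3 rose and 2 fell under the KO label. These calls made up 10% and 50% of the list, against 30.4% and 47.2% of all genes. Alkbh7, a mitochondrial homolog, fell by 0.78 and by 0.89. In KO-labelled tumors Alkbh1 rose by 0.63, the tRNA-modifying Alkbh8 by 0.51 and Ascc3, the helicase that works with Alkbh3, by 0.37. Translesion synthesis, which copies past lesions that stay unrepaired, had 3 of 8 higher under the WT label and 7 of 8 under the KO label, with 0 lower. Rad18, which recruits these polymerases, rose by 1.07 and 0.61, and Polk, one of them, by 0.76 under the KO label.

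Damage signalling had 4 of 12 higher and 1 lower under the WT label and 5 higher and 2 lower under the KO label. Its kinase Atr rose by 0.49 and 0.35 and its adaptor Clspn by 1.01 and 0.58. Recombination repair had 7 of 14 higher and 1 lower, and 6 higher and 2 lower, and Blm, a helicase that unwinds recombination intermediates, rose by 0.87 and 0.51. Of 5 tested enzymes in a list drawn up for the activation of azoxymethane, 0 rose under either label. Whether each of them takes part in that activation was not tested. Cyp2e1 fell by 1.78 (SE 0.533, adjusted p = 0.0149) under the WT and by 2.22 (SE 0.418, adjusted p = 0.000229) under the KO label, and Aldh2 by 1.24 and by 1.42. Cyp2e1 was low in tumors, at 0.192 to 3.88 FPKM, and varied in normal tissue from 1.53 to 21.6. Its WT call was lost in 4 of 35 alternatives and that of Aldh2 in 10, against 0 and 1 under the KO label. Under the KO label Adh1 fell by 2.47 and Adh5 fell by 0.70, and they were at -1.49 (adjusted p = 0.0879) and -0.51 (adjusted p = 0.0734) under the WT label. Over all genes 30.4% passed under the WT and 47.2% under the KO label. Between KO-labelled and WT-labelled tumors 0 genes of any of these lists passed, with 0 to 5 per list at an unadjusted p under 0.05. The proliferation list moved beside them, with 14 of 18 higher under the WT label, and 6 higher and 1 lower under the KO label (281 to 459 FPKM in tumors, 206 to 380 in normal tissue). With its mean as covariate 23 of the 47 calls on the repair genes followed here, pooled over both labels, were lost. The share of all genes called then went from 30.4% to 19.7% under the WT label and from 47.2% to 43.6% under the KO label. Under the WT label the sums of the proliferation list did not overlap between the tissues. Without the stand-apart libraries the KO-labelled counts fell from 6 to 3 higher for recombination repair and from 3 to 1 higher for AlkB homologs and ASCC partners, where Alkbh8 and Ascc3 lost their calls, as Ung did in base excision repair.

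**Figure D5:**
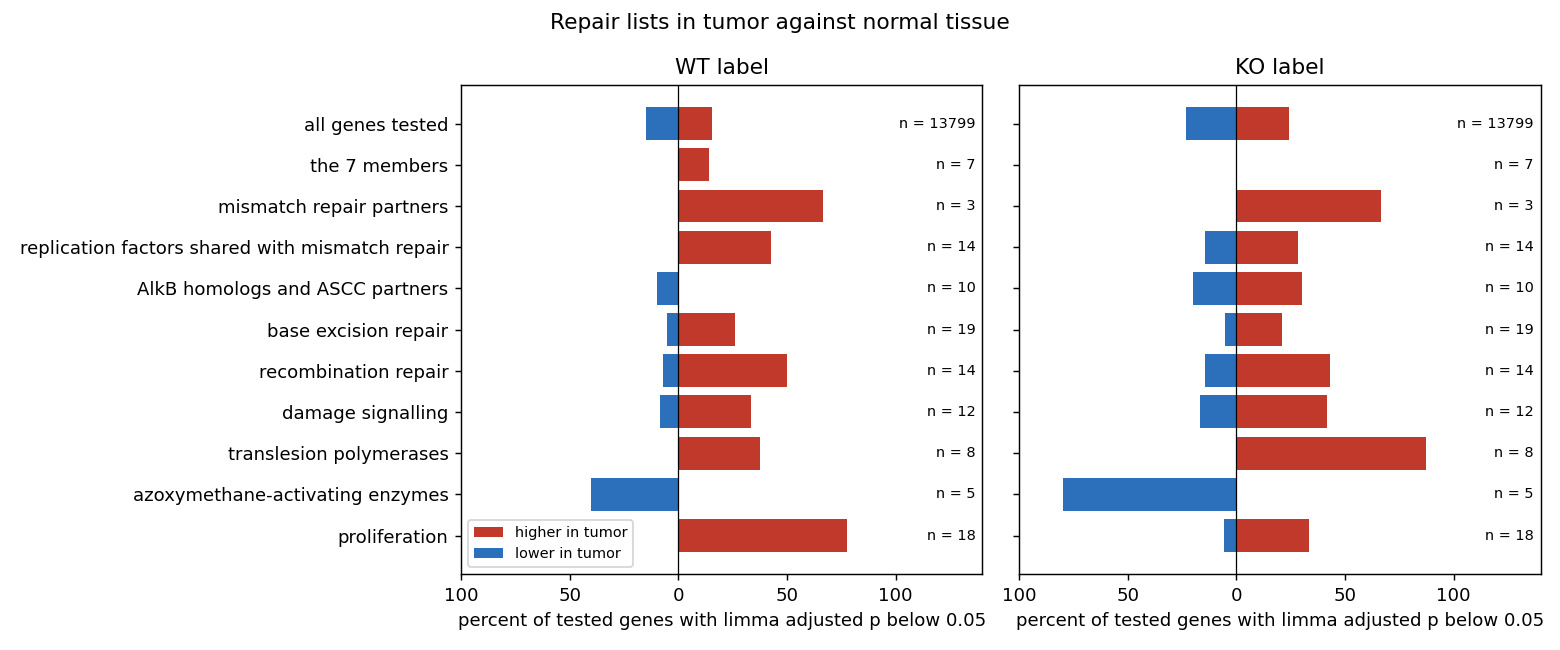
Percent of the tested genes of each list (n at the right) that passed the limma threshold in tumor against normal tissue, higher to the right in red and lower to the left in blue, under the WT label (left panel) and the KO label (right panel). Mismatch repair partners show 2 of 3 higher under either label, against 1 of 7 and 0 of 7 for the members.

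Across the 24 libraries, after removal of the mean of each tissue, the members fell into patterns that are described here without a test. Msh3 and Pms2 varied together (Pearson r = 0.79, and 0.46 without the stand-apart libraries), as did Msh6 with Pms2 (0.64 and 0.16) and Msh3 (0.60 and 0.30), and Mgmt with Alkbh2 (0.57 and 0.31), while Alkbh2 and Pms2 ran opposite (-0.64 and -0.11). Each of these 5 values was thus smaller in size without those libraries, whereas Mpg with Alkbh3 was at 0.47 and 0.55. The libraries differed in depth. In KO-8-hetero normal replicate 2 Msh3, Msh6 and Pms2 were low and Mgmt and Alkbh2 high, while the short Alkbh3 was also low. Of all tested genes, those most like each member by r were Cd81 for Mgmt (0.76, and 0.65 without the stand-apart libraries), Rbm3 for Mpg (0.84 and 0.85), Tbca for Alkbh2 (0.90 and 0.76) and Nptn for Alkbh3 (0.82 and 0.81). For the mismatch repair genes they were Zfp869 for Msh3 (0.89 and 0.76), Dck for Msh6 (0.82 and 0.42) and Pias1 for Pms2 (0.90 and 0.73). The r of the closest gene to Msh6 thus went from 0.82 to 0.42 without the stand-apart libraries, whereas those of Mpg and Alkbh3 moved by no more than 0.01.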

How the data were processed

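For each library the authors deposited FPKM by gene symbol, per the file headers. The submitters' processing notes name mm10, TopHat2 2.1.1, Bowtie2 2.2.8, SAMtools 0.1.18 and Cuffdiff 2.2.1, without roles or order. Per the labels' protocols, a miRNeasy kit gave total RNA and a stranded TruSeq kit the mRNA libraries. Fragment totals are unknown, so no counting interval is given.

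Values were transformed as log2(FPKM + 1), with a pseudocount of 1 and no further scaling, and tested two-sided with limma 3.58.1 (R 4.3.3; eBayes with trend), over the 13799 genes with at least 1 FPKM in at least 4 of the 24 libraries. One model of genotype label by tissue served the pooled comparisons and the interaction, and another of the 10 groups served single groups. The fits were tested on simulated data. Groups came from the titles. Named genes were the members, up to 4 called genes per repair list by p (a few are given), all mismatch repair partners, opposite-strand neighbours, and the genes most like each member. The members and lists were chosen with earlier results of these data known, and a few genes of the lists are not reported here and stand in no list count. Same-numbered tumor and normal libraries correlated at -0.159 to 0.355, so numbers were not taken to pair them. Transcript length was known for 96.4% of tested genes. Figures and summaries used Python 3.11.15, pandas 2.3.3, numpy 2.4.6 and matplotlib 3.10.9. Alternatives are described in the closing section.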

Additional observations from a re-analysis of the deposited data

Results flagged for a closer look

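Of 35 combinations of a member with a group of 4 to 10 libraries or with a pooled label, 4 held a library far from the others, a rule that chance alone meets in about 1 in 20 groups. Mgmt in WT-young tumor replicate 4 was 8.08 FPKM, with the other 4 WT-labelled tumors at 5.78 to 6.24. Msh6 in the WT-old tumor was 17.5 FPKM, with the others at 10 to 11.3, and Pms2 in the same library was 5.39 FPKM, with the others at 3.09 to 3.55. Pms2 in KO-8-hetero normal replicate 2 was 1.15 FPKM, with the other 5 KO-labelled normal libraries at 3.02 to 3.7. In this library median values fell with transcript length, and Pms2 lay further down than its length bin (-0.88 against -0.33). The WT-old tumor is the only library of its group, so its values cannot be told apart from a difference between the young and old groups.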

How the results depend on the processing

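Of 1015 alternative values of members, 24 changed sign, 19 newly passed and 13 no longer passed, the rest doing neither, and the causes were not tested. Most of these values belong to results that did not pass at first, and many left-out libraries lay outside the comparison. The only calls on members were on Mpg. Under the WT label its call held in 7 of 11 alternatives and in 22 of 24 fits that left out 1 library. In KO-1-hetero tumors it held in 8 of 11 and in 20 of 24. Of 47 calls on repair list genes in tumor against normal tissue, 36 were lost at least once and 12 on leaving out 1 library; of their 1645 alternative values 155 no longer passed, 23 with the proliferation and 16 with the smooth muscle covariate, 19 with the replicate block, 14 with quantile normalization, 14 with Xist below 1 FPKM, 7 without the WT-old and 6 without the stand-apart libraries. In WT-labelled tissue the 4192 genes called became 2682 without the WT-old libraries, 2230 with the replicate block, 2716 with the proliferation and 2334 with the smooth muscle covariate. The members called there (1) became 0 with quantile normalization, without the WT-old libraries or with the replicate block, 2 with the smooth muscle covariate or without the 2 libraries that stand apart (chosen after seeing the data), 3 with Xist below 1 FPKM, and 0 to 3 leaving out 1 library. Reversed values there were, with the proliferation covariate, Mgmt 0.10, Msh3 -0.35, Pms2 -0.03, Mlh3 -0.20, Aldh2 0.23 and Top2a -0.03. Top2a is itself in the proliferation list. Quantile normalization reversed Msh3 to -0.03 and Mlh3 to -0.14. The smooth muscle covariate reversed Alkbh3 to 0.06 and Mlh3 to -0.01. With 75th percentile scaling Alkbh3 was reversed to 0.01. With 1 library left out, reversed values were Alkbh3 0.07 (-0.12 to 0.07) and Mlh3 -0.01. In KO-labelled tissue the 6520 genes became 3670 with Xist below 1 FPKM. The members called (0) became 2 with quantile normalization, 1 with Xist below 1 FPKM, without the stand-apart libraries or with either covariate, and 0 to 1 leaving out 1 library. Reversed values were, with quantile normalization, Mpg -0.09, Alkbh2 -0.14, Pms2 -0.18 and Pms1 -0.04; with the smooth muscle covariate, Mpg -0.01 and Alkbh2 -0.13; with Xist below 1 FPKM, Mgmt 0.13 and Pms2 -0.11; with the proliferation covariate, Pms2 -0.09; without the stand-apart libraries or KO-8-hetero normal replicate 2, Pms2 -0.11 (up to 0.11 leaving out 1 library); with the replicate block, Alkbh2 -0.02; and without 1 KO-8-homo normal library, Alkbh2 -0.10 and -0.04 (up to 0.19). For the interaction, the 0 genes became 7 with Xist below 1 FPKM, 1 without the stand-apart libraries, and 0 to 1 leaving out 1 library. Between labels in tumors, the 1 gene became 0 with a pseudocount of 0.1, no filter, no trend, the replicate block, the smooth muscle covariate, Xist below 1 FPKM or no WT-old libraries, 5 without the stand-apart libraries, 9 with the proliferation covariate, and 0 to 2 leaving out 1 library; Alkbh2 reversed to -0.02 without the WT-old libraries, the stand-apart libraries or the WT-old tumor (up to 0.11), and to -0.03 with the proliferation covariate. The 397 genes of KO-1-hetero became 94 with Xist below 1 FPKM, 230 with the replicate block, 1427 with the proliferation and 13 with the smooth muscle covariate, and 15 to 605 leaving out 1 library; its 1 member became 0 with Xist below 1 FPKM, the replicate block, the smooth muscle covariate or 1 library left out (0 to 1). The 1 gene of KO-8-hetero became 2 with no filter, 3 with Xist below 1 FPKM, 0 with quantile normalization, the replicate block or the smooth muscle covariate, and 0 to 242 leaving out 1 library. The 63 genes of KO-8-homo became 654 with the proliferation and 35 with the smooth muscle covariate and 18 to 78 leaving out 1 library, and its 0 members became 1 with the proliferation covariate. The replicate block lost the Mpg calls given above and called 0 members in any comparison; tumor and normal libraries shared only a number. Fragment totals are unknown, so how far depth limits each member was not tested.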
